A study of Mus musculus with 48 samples.

Results

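Skin of mice dosed with the DGAT1 inhibitor Cpd2 was set directly against skin of mice dosed with the DGAT1 inhibitor Cpd1, within Study 1 and without the vehicle mice. The comparison used 16 of the 48 arrays of the series, namely the 8 arrays labelled Cmpd2 and the 8 arrays labelled Cmpd1 in Study 1, across all genes on the array. The study calls Cpd2 skin-positive, because treated skin showed atrophic sebaceous glands, and Cpd1 skin-negative. Both groups were C57BL/6 mice, labelled 8 weeks of age, dosed for 14 days, with dorsal skin taken for total RNA, and the methods describe male diet-induced obese mice on a high-fat diet dosed by mouth in methylcellulose. Each array held 1 mouse. The inhibitors belong to different structural series, the labels give no dose, and the study's text does not give 1 dose for Cpd1, so the compounds are compared as they were given and not at a matched dose. The 8 vehicle mice of Study 1, which received methylcellulose alone, are used only to say where skin without an inhibitor lay.

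DGAT1 is an enzyme of the endoplasmic reticulum that joins a fatty acyl-CoA to diacylglycerol, the last step of triglyceride synthesis, and it also esterifies retinol. Sebaceous glands are holocrine glands on the hair follicle whose cells fill with triglycerides, wax esters and other lipids and then burst to release sebum. In mice that lack DGAT1 these glands are known to shrink.

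All values are log2 of the deposited RMA intensities, a difference is the Cpd2 mean minus the Cpd1 mean on that scale, and errors of differences are standard errors. A probeset was called when limma's moderated test, with Benjamini-Hochberg adjustment over the 28789 probesets tested, gave an adjusted p under 0.05. The labelled tissue fitted its markers, with Krt10, the keratin of differentiating epidermis, at a median of 12.57 in the Cpd1 mice and 12.84 in the Cpd2 mice.

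The arrays differed in ways that touch every count. The mean of 24 skeletal muscle genes lay between 10.96 and 11.60 in the Cpd1 mice, but 4 of the Cpd2 mice (replicates 2, 3, 4 and 7) lay between 5.46 and 7.96 while the other 4 lay between 10.38 and 11.51. The same 4 mice stood apart on the first principal component, which held 29.7% of the variance, at 49.2 to 63.53 against -0.78 to 8.27 for the other Cpd2 mice and -37.17 to -15.81 for the Cpd1 mice. Counts of calls are therefore also given without these 4 mice, a choice made after the arrays were seen. Muscle genes were not all that set them apart. They were the Cpd2 mice lowest in the mean of the sebaceous gland genes described below (8.05 to 8.40, the other 4 at 8.50 to 8.92). They were also highest in the means of the T cell genes (6.81 to 7.08 against 6.43 to 6.64) and chemokines (8.10 to 8.26 against 7.54 to 7.81). What a call lost without them owes to muscle content was not tested. In samples of whole skin, fewer cells of a type and less RNA per cell cannot be told apart.

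Genes that mark position along the body also separated the groups. Hoxa10 had a median of 8.69 (8.54 to 8.83) in the Cpd1 mice and 7.16 (5.07 to 8.18) in the Cpd2 mice, and the vehicle mice lay at 5.84 to 8.04, so it was the Cpd1 mice that stood above every other mouse. Of 28 Hox genes tested 8 were lower with Cpd2 and 0 higher (4 and 0 without the 4 mice), among them Hoxc10 (difference -3.28 ± 0.45) and Hoxa9 (-1.75 ± 0.20), whereas limma called 0 of 18 limb and trunk position factors (the unadjusted p was under 0.05 in 3, the methods' t-test called 0, and 2 were lower without the 4 mice). The methods speak of dorsal or ventral biopsies, the labels of dorsal skin alone, and for genes that differ with body position the compound and the place of the biopsy cannot be told apart here. Hair shaft keratins and keratin-associated proteins varied widely within each group, the mean of 9 such genes running from 3.27 to 9.59 (median 7.66) in the Cpd1 mice and from 3.40 to 7.84 (median 3.99) in the Cpd2 mice. The vehicle mice ran from 3.02 to 11.29 with a median of 3.76, nearer to the Cpd2 median than to that of Cpd1. By limma 0 of the 9 were called, 5 had an unadjusted p under 0.05, the methods' t-test called 0, and the median difference was -2.19. Without the 4 mice limma again called 0, but 8 had an unadjusted p under 0.05 and the median was -3.47, so a missing call does not show that the hair cycle was alike in the groups.

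**Figure D1:**
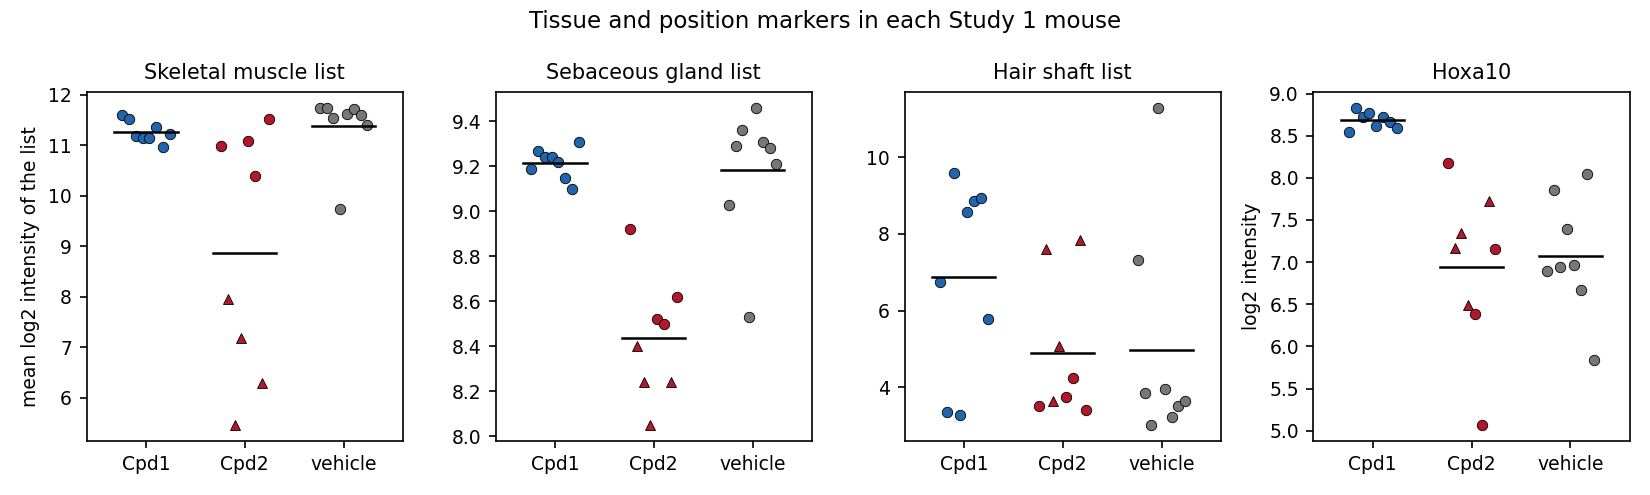
Mean log2 intensity of the skeletal muscle, sebaceous gland and hair shaft lists and log2 intensity of Hoxa10 (y axes) in each of the 8 mice of the Cpd1, Cpd2 and vehicle groups (x axis), with the group mean as a line. Triangles mark the 4 Cpd2 mice at 5.46 to 7.96 in muscle genes, and all 8 Cpd1 mice lie above all other mice in Hoxa10.

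Cpd2 and Cpd1 skin differed in a large part of the genes measured. Of 28789 probesets 5239 (18.2%) were called, 2683 higher with Cpd2 (9.32%) and 2556 lower (8.88%). Counted by gene, with 1 probeset each, 3389 of 15371 genes (22.0%) were called, 1681 higher (10.9%) and 1708 lower (11.1%). Without the 4 mice low in muscle 1741 probesets (6.05%) were called, of which 1518 had been called in the same direction with all mice, and by gene 7.71% were, 479 higher (3.12%) and 706 lower (4.59%). The lower genes moved further than the higher ones. A fold of at least 2 was reached by 398 probesets that were lower and by 48 that were higher, and a fold of at least 4 by 129 and 2. Leaving out the 4 mice gave 140 and 57 probesets at a fold of at least 2, and 29 and 2 at a fold of at least 4. The median fold of the called probesets was 1.38. In 902 called probesets (3.13%) the 8 mice of one group all lay on one side of the 8 mice of the other, 461 with Cpd2 higher (1.60%) and 441 with Cpd2 lower (1.53%), and by gene the share was 4.17%. Without the 4 mice, with fewer mice to overlap, 1219 called probesets did not overlap.

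**Figure D2:**
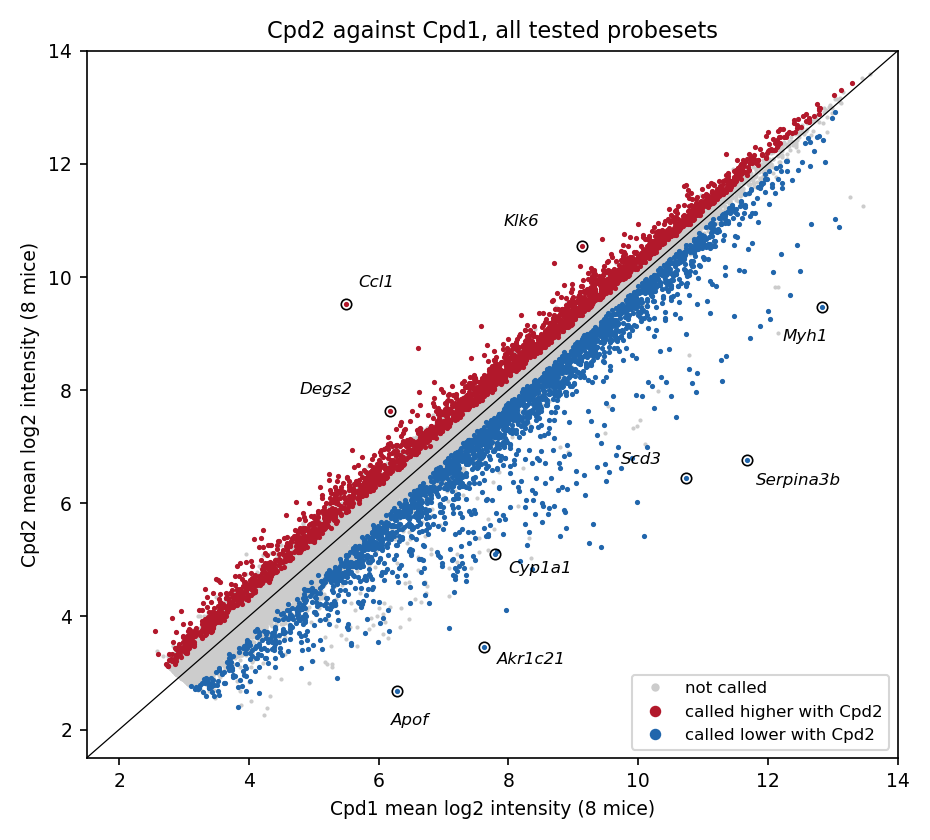
Mean log2 intensity in the 8 Cpd2 mice (y axis) against the 8 Cpd1 mice (x axis) for each of the 28789 probesets tested, with the 2683 called higher in red, the 2556 called lower in blue and the line of equality. The lower probesets reach further from the line than the higher ones, where Ccl1 stands apart.

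The stretches of DNA just before the start of 4 of the genes that moved furthest are shown first. The 4 were picked by hand: Serpina3b, Scd3 and Cyp1a1, all lower with Cpd2, and Ccl1, the gene of largest increase. Each stretch is the 250 bases before the RefSeq start on build GRCm38.p6, read 5′ to 3′ on the gene's strand. Of the 30 genes of largest difference, 24 had an entry in the RefSeq promoter table. Capitals mark matches on either strand to a TATA box (TATAAA) or a CCAAT box (CCAAT), and no stretch held the dioxin response core (TNGCGTG), an AP-1 site (TGANTCA) or a GC box (GGGCGG). Bases further from the start were not searched, so this does not show that a gene lacks such sites. The shorter letters GCGTG stand in the Serpina3b and Cyp1a1 stretches without the leading T, and were not searched for alone.
Serpina3b, chr12:104127746-104127995, plus strand: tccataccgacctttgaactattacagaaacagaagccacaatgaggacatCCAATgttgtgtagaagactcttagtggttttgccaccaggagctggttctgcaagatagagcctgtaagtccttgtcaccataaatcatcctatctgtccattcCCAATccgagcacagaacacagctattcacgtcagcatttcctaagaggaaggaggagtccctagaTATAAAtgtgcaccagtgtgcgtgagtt
Scd3, chr19:44203038-44203287, plus strand: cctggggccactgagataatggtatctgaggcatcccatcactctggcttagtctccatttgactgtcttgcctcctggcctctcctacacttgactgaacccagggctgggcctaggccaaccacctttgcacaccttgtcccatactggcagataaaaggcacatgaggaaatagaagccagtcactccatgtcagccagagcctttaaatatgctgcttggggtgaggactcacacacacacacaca
Cyp1a1, chr9:57697363-57697612, plus strand: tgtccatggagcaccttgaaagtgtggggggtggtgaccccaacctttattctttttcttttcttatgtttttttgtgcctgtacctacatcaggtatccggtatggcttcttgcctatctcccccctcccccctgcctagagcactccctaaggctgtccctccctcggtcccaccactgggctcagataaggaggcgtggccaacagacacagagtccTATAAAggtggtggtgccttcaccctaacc
Ccl1, chr11:82179813-82180062, minus strand: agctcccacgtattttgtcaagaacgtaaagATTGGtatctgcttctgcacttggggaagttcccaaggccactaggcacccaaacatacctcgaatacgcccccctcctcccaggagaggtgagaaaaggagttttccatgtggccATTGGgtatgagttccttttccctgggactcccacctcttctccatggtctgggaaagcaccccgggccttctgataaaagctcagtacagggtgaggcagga
The TATA box began 28 bases before the start in Serpina3b and 30 bases before it in Cyp1a1. Scd3 held no match to any of the motifs in this window. Over all 32851 promoters of this length in the table, 12.4% held TATAAA, 33.8% CCAAT, 4.10% TNGCGTG, 6.75% TGANTCA and 32.7% GGGCGG, so such matches are common and none of them sets the 4 genes apart.

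Among the 15 largest decreases whose groups did not overlap were 3 muscle genes, Myh1, Actn2 (-3.09 ± 0.67) and Myh2 (-2.93 ± 0.60). Their differences were much smaller without the 4 mice, at -0.90, -1.14 and -1.35. Genes with overlapping groups were left out of the 15, among them the muscle genes Ckmt2 (-3.10 ± 0.81) and Cox6a2 (-2.75 ± 0.76). The other 12 of the 15 follow. Serpina3b, a member of the clade A3 serine protease inhibitors that is expanded in mouse, had a median of 11.69 (11.35 to 11.87) in the Cpd1 mice and 6.64 (4.85 to 9.64) in the Cpd2 mice. The difference was -4.90 ± 0.43, a 29.9-fold decrease with an adjusted p of 1.5e-06, and without the 4 mice it was -4.22 (adjusted p = 8.91e-05). Its close relative Serpina3j differed by -4.67 ± 0.45, and since such relatives can share probe signal the pair is not counted as independent. No Cpd2 mouse reached a Cpd1 mouse in either gene, and Cpd2 replicate 1 was the nearest.

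Scd3, a stearoyl-CoA desaturase found in sebaceous gland that puts the first double bond into saturated fatty acids, had a median of 10.71 (10.48 to 11.03) with Cpd1 and 6.45 (4.18 to 8.91) with Cpd2. The difference was -4.29 ± 0.46, a 19.5-fold decrease (adjusted p = 9.51e-06), and -3.27 without the 4 mice. Apof, an apolipoprotein that modulates cholesteryl ester transfer, had a median of 6.24 (5.96 to 6.84) with Cpd1 and 2.46 (2.23 to 3.65) with Cpd2, 12.3-fold lower. Cyp2b23, a cytochrome P450 of the 2B family, fell 15.5-fold, with medians of 9.28 and 5.38. In all of these genes the groups did not overlap and the vehicle mice lay close to the Cpd1 mice, Apof in vehicle having a median of 6.21.

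Enzymes that oxidise aldehydes, aromatic compounds and acyl-CoAs followed. Aox4, an aldehyde oxidase that can turn retinaldehyde into retinoic acid, had medians of 7.39 and 4.76 and fell 6.52-fold. Cyp1a1, the cytochrome P450 best known as a target of the aryl hydrocarbon receptor, had a median of 7.83 (7.50 to 7.99) with Cpd1 and 5.04 (4.50 to 5.59) with Cpd2, a 6.48-fold decrease (adjusted p = 4.67e-09) that was almost as large without the 4 mice (-2.60 against -2.69). The esterase-like Aadacl4 differed by -2.67 ± 0.27. Cyp1a1 varied little within each group, and the spread of the Cpd2 mice in Scd3 and Serpina3b was several log2 units.

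**Figure D3:**
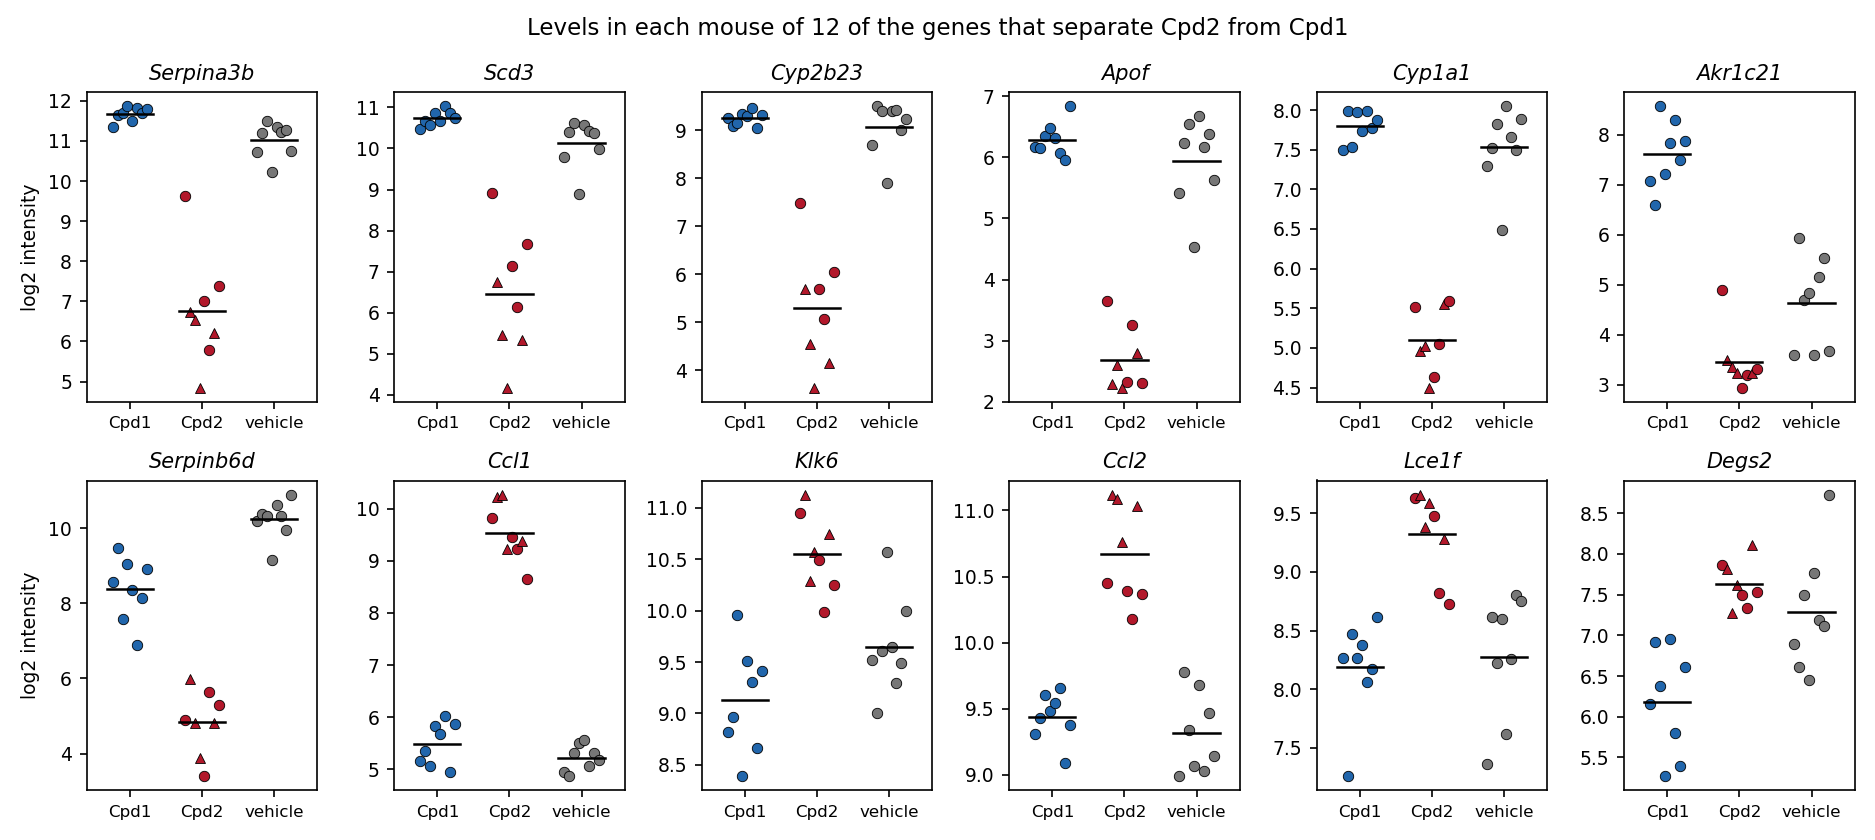
Log2 intensity (y axes) of 12 genes in each of the 8 mice given Cpd1, Cpd2 or vehicle (x axes), with group means as lines and triangles for the 4 Cpd2 mice low in muscle genes. In Ccl1 the Cpd2 mice lie at 8.65 to 10.27 and all other mice at 6.03 or lower, and in Akr1c21 the vehicle mice lie nearer to Cpd2 than to Cpd1.

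Some of the largest decreases were smaller when set against vehicle skin. Akr1c21, an aldo-keto reductase that acts on steroids, had medians of 7.67 with Cpd1, 3.27 with Cpd2 and 4.76 with vehicle. Hamp2, a mouse relative of the iron hormone hepcidin, had medians of 9.46, 5.56 and 6.67 in the same order, and Serpinb6e, an intracellular protease inhibitor, 7.99, 4.30 and 5.73. In these genes the vehicle mice lay between the compounds and nearer to Cpd2, whereas Serpinb6d, a close relative of Serpinb6e, had a vehicle median of 10.32, above the 8.46 of Cpd1 and the 4.85 of Cpd2.

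Over the 902 probesets whose groups did not overlap, the vehicle mean could be placed on a line that runs from 0 at the Cpd1 mean to 1 at the Cpd2 mean. It lay under 0.25, on the Cpd1 side, in 477, between 0.25 and 0.75 in 385, and above 0.75, on the Cpd2 side, in 40. Of the 461 higher with Cpd2 270 were on the Cpd1 side and 10 on the Cpd2 side, and of the 441 lower 207 and 30. The 40 include Hoxa10 at 0.92 and Degs2 at 0.76. The vehicle mean held all 8 mice, of which vehicle replicate 4 stood apart. That mouse lay at 9.73 in the mean of the muscle genes (the others at 11.41 to 11.74) and at 8.53 in that of the sebaceous genes (9.03 to 9.46). In the mean of the hair shaft genes it lay at 11.29, and the others at 3.02 to 7.32. Positions without this mouse were not computed. Of all 28789 probesets, 0 had every vehicle mouse above all mice of both compounds and 2, those of Il1r2 and Wnt10a, had every vehicle mouse below them, and neither of these differed by a called amount between the compounds (0.16 ± 0.07 and 0.07 ± 0.16).

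Genes known from the sebaceous gland were mostly lower with Cpd2. The mean of 23 such genes was between 9.10 and 9.31 in the Cpd1 mice, between 8.05 and 8.92 in the Cpd2 mice and between 8.53 and 9.46 in the vehicle mice, and the Cpd1 and Cpd2 mice did not overlap. Of the 23, 14 were lower and 2 higher (11.1% and 10.9% of all genes), with a median difference of -0.49 against 0.02 over all genes, and without the 4 mice 11 were lower and 0 higher. Without the 4 mice the shares over all genes were 4.59% lower and 3.12% higher. These shares are the ones to set beside the counts of every list. Beside Scd3, Apof and Aox4 the largest decreases were in Plin5, a lipid droplet coat protein (-1.30 ± 0.23), and Awat2, an acyltransferase that makes wax esters (-1.06 ± 0.22). The related Awat1 differed by -0.90 ± 0.19 but was not called without the 4 mice (-0.47, adjusted p = 0.0931). Krt79, a keratin of the gland's duct, was higher (0.38 ± 0.08), and lost its call without the 4 mice as well (adjusted p = 0.0726).

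Cpd2 replicate 1 was the Cpd2 mouse nearest to the Cpd1 mice in the sebaceous list, at 8.92 against 8.05 to 8.62 for the other 7, and also the highest Cpd2 mouse in Akr1c21 at 4.90, Hamp2 at 7.41 and Hoxa10 at 8.18. Its muscle mean was 10.98, within the range of the Cpd1 mice.

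Enzymes that build fatty acids were lower with Cpd2 as a group. Of 27 genes of fatty acid synthesis, elongation and desaturation 17 were lower and 1 higher, with a median of -0.40, and without the 4 mice 15 were lower and 0 higher. Fasn, the fatty acid synthase, had a median of 8.89 (8.24 to 9.85) with Cpd1, 7.48 (6.74 to 7.92) with Cpd2 and 8.41 with vehicle, a 2.81-fold decrease (adjusted p = 0.000164) with no overlap between the compounds. Acss2, which makes acetyl-CoA from acetate, fell by 1.29, Mlxipl, a carbohydrate-responsive transcription factor of lipogenic genes, by 1.26, and Acacb, an acetyl-CoA carboxylase, by 1.01. Scd1, the main desaturase of mouse skin, was measured by a pair of probesets that differed: the brighter one was near the top of the scale in every mouse and was not called (-0.08 ± 0.03, adjusted p = 0.129), and the other was lower (-0.67 ± 0.09, adjusted p = 0.000145).

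Genes of triglyceride synthesis, lipolysis and the lipid droplet were lower in 13 of 24 and higher in 1, with a median of -0.33, and lower in 9 and higher in 0 without the 4 mice. The target itself, Dgat1, was lower with Cpd2 by 0.76 ± 0.11, from a median of 11.02 (10.70 to 11.12) to 10.27 (9.74 to 10.66), with a vehicle median of 10.91. This was a 1.69-fold decrease with no overlap between the groups (adjusted p = 0.000265), and -0.52 without the 4 mice (adjusted p = 0.00537). Dgat2, the enzyme that makes triglycerides by a separate fold, differed by -0.30 ± 0.08 (adjusted p = 0.0134) with overlapping groups, and was not called without the 4 mice (adjusted p = 0.0572). The largest decrease of the list was in Pnpla5, a patatin-like lipase of lipid droplets (-2.55 ± 0.24), and among the other acyltransferases Mogat2, which makes diacylglycerol from monoacylglycerol, differed by -0.85 ± 0.17.

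Wax ester and sterol ester synthesis held 4 lower and 2 higher genes of 9, with a median of -0.15. Without the 4 mice 2 were lower and 0 higher, with a median of 0.03. Fabp5, the epidermal fatty acid-binding protein, led the list by -1.07 ± 0.13, with no overlap. Of 19 cholesterol synthesis genes 11 were lower and 1 higher, and without the 4 mice 9 and 1. Mvd, Lss and Nsdhl, enzymes of the mevalonate and later sterol steps, fell by 0.88, 0.87 and 0.84, and the gene that was higher was Srebf2, the transcription factor of this pathway (0.39 ± 0.06, chosen after its values were seen). That value is from its brightest probeset, and the other probesets of Srebf2 were not called (0.08 ± 0.07 and 0.20 ± 0.12).

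Peroxisome genes were lower in 17 of 32 and higher in 0 (median -0.31), and in 10 and 0 without the 4 mice. Acox3, a peroxisomal oxidase of branched-chain acyl-CoAs, had a median of 10.71 (10.52 to 10.95) with Cpd1, 8.96 (8.67 to 9.59) with Cpd2 and 10.38 (9.41 to 10.50) with vehicle. Its difference of -1.75 ± 0.10 had an adjusted p of 4.61e-09 and was -1.62 without the 4 mice, while a pair of dim Acox3 probesets gave -0.69 ± 0.20 and, not called, -0.16 ± 0.14. Acox2, which acts on bile acid precursors and branched chains, differed by -1.82 ± 0.23, Crat, the carnitine acetyltransferase, by -1.28 ± 0.14, and Pex11a, a factor of peroxisome division, by -0.77 ± 0.07. The groups did not overlap in any of these 4 genes.

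Of 18 genes of fatty acid oxidation in mitochondria 12 were lower and 0 higher with all mice, and 4 and 0 without the 4, while the list median hardly moved (-0.28 and -0.26). The muscle isoform Cpt1b went from -2.21 (adjusted p = 0.0161) to -0.53 (adjusted p = 0.245). Of 29 respiratory chain genes 7 were lower and 0 higher, and 1 and 0 without the 4 mice, with medians of -0.13 and -0.11. The members that moved furthest were Cox6a2, Cox8b and Cox7a1, the striated muscle isoforms of cytochrome oxidase (-2.75, -2.06 and -1.65). The part of the muscle content of the samples in these differences was not tested.

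Among 27 genes of retinoid metabolism and the aldehyde oxidases, 8 were lower and 1 higher, and 7 and 0 without the 4 mice. After Aox4 came Rbp4, the plasma retinol carrier (-1.05 ± 0.15), Rdh1, a retinol dehydrogenase (-1.0 ± 0.11), and Rarb, a retinoic acid receptor that is itself induced by retinoic acid (-0.73 ± 0.17). Rarb overlapped between the groups and was not called without the 4 mice (adjusted p = 0.15), and its dimmer probeset was not called at all (0.21 ± 0.12, adjusted p = 0.232). Of 24 genes of cytochrome P450 families 1 to 4, 9 were lower and 4 higher, and 8 and 0 without the 4 mice. Cyp2j12 followed Cyp2b23 and Cyp1a1 with -2.12 ± 0.21, while Cyp2g1, an olfactory and steroid-metabolising form, was higher with all mice (1.19 ± 0.25) and not called without the 4 (adjusted p = 0.0866). Of 12 aldo-keto reductases 2 were lower and 1 higher (2 and 0 without the 4 mice), and beside Akr1c21 the lower one was Akr1b10 (-0.47 ± 0.09). With all mice the glutathione and NRF2 list had 3 lower and 3 higher of 24, near the shares over all genes (11.1% and 10.9%). Without the 4 mice the list had 0 lower and 1 higher. Hmox1, haem oxygenase 1, led it with a median of 7.66 (6.18 to 8.91) for Cpd1 and 9.20 (8.62 to 9.52) for Cpd2, a difference of 1.56 ± 0.31 with overlapping groups, and the vehicle median of 8.52 lay between.

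The marker set that the study derived held 38 genes measured here, of which 26 were lower and 11 higher with Cpd2, 30 of them without overlap. The set was chosen on these very Study 1 arrays together with those of a second study. The choice asked for a change with Cpd2 and with Cpd6, and none with Cpd1. Its direction here is therefore fixed by that choice and is no independent evidence. The study also scored the set on independent test arrays, which are not used here. Scd3, Apof, Aox4, Cyp1a1, Cyp2b23, Aadacl4 and Ccl1 belong to it. So do Pnpla5, Acox2, Crat, Cyp2j12, Cyp2g1, Cers5, Cxcl16, Tnfrsf4, Defb1 and Rnase2b (Ear5 in the study), which are given with other lists. Abhd3, counted among the triglyceride genes, is also a member. Their direction in those lists was fixed by the same choice, as was that of Scd3, Apof and Aox4 in the sebaceous gland list. The gene not called was Lrp6, a Wnt co-receptor, at -0.35 ± 0.14 (adjusted p = 0.0857) by its brighter probeset, although its dimmer probeset was lower (-0.59 ± 0.13, adjusted p = 0.00441). Beside the genes already given, the larger decreases were in Gabra4, a GABA receptor subunit (-2.45 ± 0.19), Ces4a, a carboxylesterase (-2.42 ± 0.27), Hpdl (-2.23 ± 0.14), Adam3 (-2.14 ± 0.22) and Hsd17b2, which inactivates oestradiol and testosterone (-1.88 ± 0.20). Without the 4 mice 25 were lower and 7 higher.

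**Figure D4:**
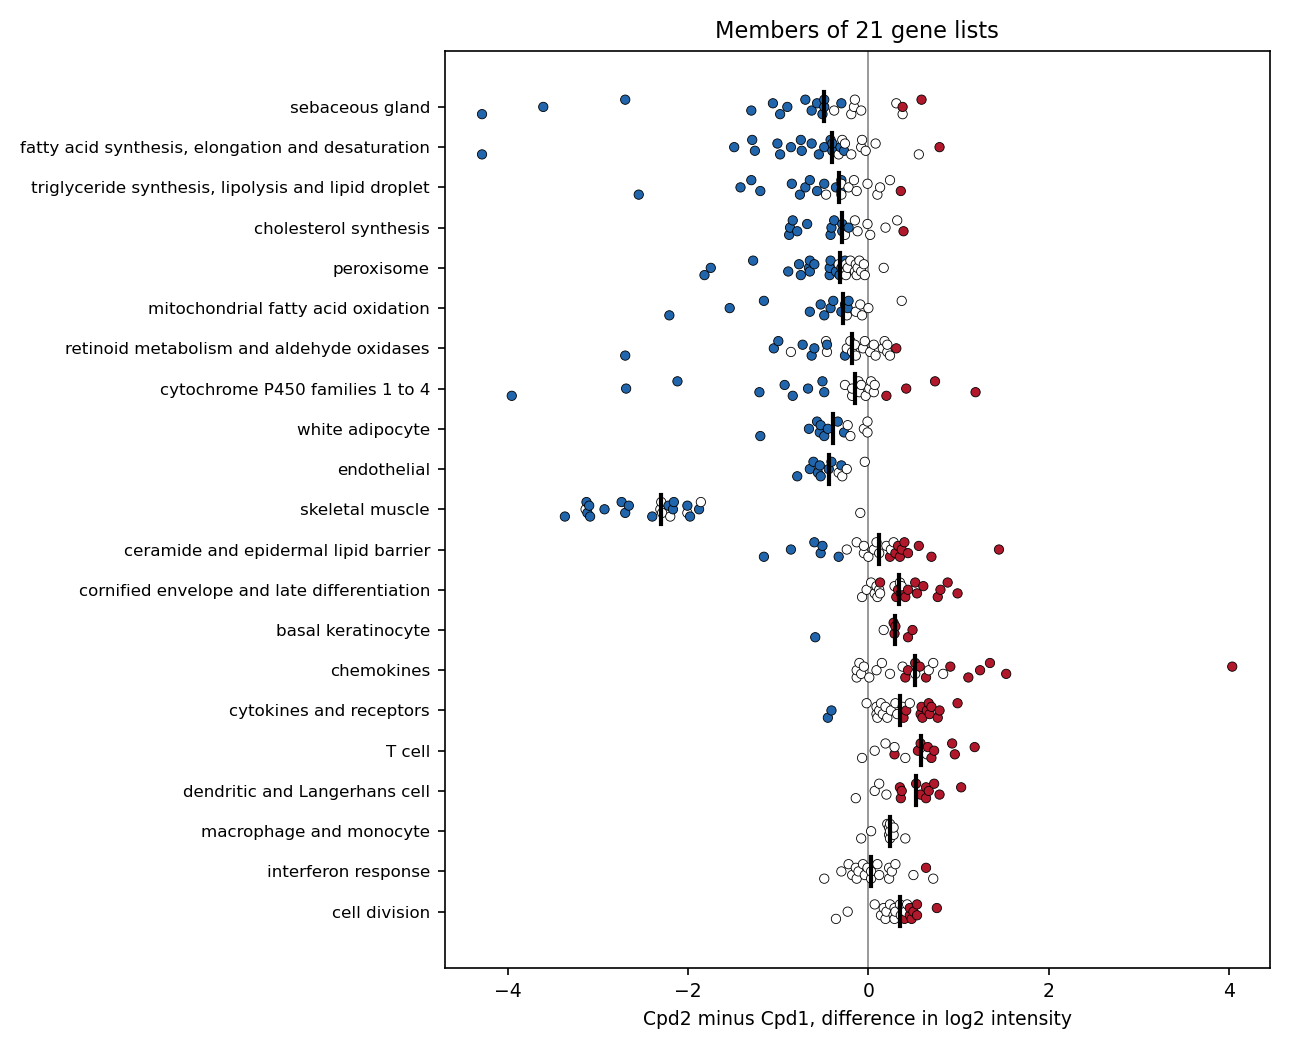
Cpd2 minus Cpd1 difference in log2 intensity (x axis) of each tested member of 21 gene lists (y axis), with the list median as a vertical bar, members called higher in red, called lower in blue and not called in white, all 16 mice. The fatty acid, triglyceride, cholesterol and peroxisome lists have medians below 0, the chemokine, T cell and dendritic cell lists medians above 0, and the muscle list, whose median is -2.31, includes the 4 mice low in muscle genes.

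Lists of other tissues were lower too, and the 4 mice bore on them to different degrees. Of 24 skeletal muscle genes 16 were lower and 0 higher with a median of -2.31, and without the 4 mice 3 were lower with a median of -0.17. Myh1, a fast myosin heavy chain, differed by -3.37 ± 0.90 with all mice and -0.90 without the 4. A second Myh1 probeset gave -3.20 ± 0.63 with all mice and -1.43 without the 4 (adjusted p = 0.01). A second Myh2 probeset was not called with all mice (0.34 ± 0.14, adjusted p = 0.102). White adipocyte genes were lower in 9 of 14 and higher in 0 (3 and 0 without the 4), led by Acvr1c, an activin receptor of fat cells (-1.2 ± 0.29), which lost its call without them (adjusted p = 0.154). Endothelial genes were lower in 9 of 13 and higher in 0 (3 and 0 without the 4, with a median of -0.36 against -0.44), led by Kdr, the main VEGF receptor, whose groups did not overlap (-0.79 ± 0.12, and -0.65 without the 4). Smooth muscle genes were lower in 5 of 10 and higher in 0, and in 4 and 0 without the 4 mice, where the median was -0.45 against -0.32. The vehicle median of the list mean was 8.62 for smooth muscle and 10.61 for fat. Both lay between Cpd1 (8.89 and 10.76) and Cpd2 (8.35 and 10.48). For endothelium and skeletal muscle it was 8.32 and 11.61, above the Cpd1 medians of 8.28 and 11.21. How far the tissue content of the biopsies took part in these differences was not tested.

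Genes that were higher with Cpd2 were led by the chemokine Ccl1, a ligand of the receptor Ccr8 made by activated T cells, mast cells and dendritic cells. Its median was 5.52 (4.95 to 6.03) in the Cpd1 mice, 9.42 (8.65 to 10.27) in the Cpd2 mice and 5.24 (4.87 to 5.57) in the vehicle mice. The difference of 4.04 ± 0.22 was a 16.5-fold increase (adjusted p = 3.44e-09), 3.80 without the 4 mice (adjusted p = 1.42e-06). Every Cpd2 mouse lay far above every Cpd1 and every vehicle mouse, and the Cpd1 and vehicle mice overlapped.

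Of 25 chemokines tested 11 were higher and 0 lower with a median difference of 0.52, and without the 4 mice 4 were higher and 1 lower with a median of 0.27. Ccl2, which draws monocytes through Ccr2, had a median of 9.46 (9.09 to 9.66) with Cpd1 and 10.60 (10.18 to 11.12) with Cpd2, 2.35-fold higher with no overlap and 0.91 higher without the 4 mice (adjusted p = 0.000102). The Ccr4 ligands Ccl22 and Ccl17, typical products of dendritic cells, were 1.53 ± 0.28 and 1.35 ± 0.36 higher, with overlapping groups. Without the 4 mice Ccl22 kept its call (0.94, adjusted p = 0.048) and Ccl17 did not (0.71, adjusted p = 0.295). Cxcl16, a transmembrane chemokine that binds Cxcr6, rose by 0.91 ± 0.13 with no overlap, and a second probeset gave 0.82 ± 0.15. The receptors, which were looked up after the ligands were seen, differed less: Ccr4 was called with all mice (0.55 ± 0.16, adjusted p = 0.0215) but not without the 4 (adjusted p = 0.159), Ccr8 was not (0.65 ± 0.27, adjusted p = 0.104), and Ccr2 was not (0.41 ± 0.16, adjusted p = 0.0798).

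T cell genes were higher in 9 of 15 and lower in 0 with a median of 0.58, and in 4 and 0 without the 4 mice. Ctla4, an inhibitory receptor of activated and regulatory T cells, had a median of 5.53 (4.88 to 5.86) with Cpd1 and 6.40 (5.96 to 7.06) with Cpd2. Tnfrsf4 and Tnfrsf9, costimulatory receptors of activated T cells, were 0.93 ± 0.16 and 1.18 ± 0.21 higher, and Cd3g, a chain of the T cell receptor complex, 0.70 ± 0.12 higher. All of these 4 genes remained called without the 4 mice, with adjusted p between 0.0232 and 0.049.

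Dendritic and Langerhans cell genes were higher in 11 of 15 and lower in 0 with all mice, but in 1 without the 4 mice, that of H2-Aa, an MHC class II chain (0.53 ± 0.09, and 0.43 without the 4, adjusted p = 0.0344). Ccr7, the receptor of dendritic cells that leave for the lymph node, differed by 1.03 ± 0.28 with all mice and by 0.30 without the 4. Cd207, the langerin of Langerhans cells, differed by 0.67 ± 0.13 and 0.43. Of 11 macrophage and monocyte genes 0 were called by limma in either direction with all mice (the unadjusted p was under 0.05 in 1, and the methods' t-test called 0), with a median of 0.24, and 0 without the 4 (0 unadjusted) with a median of -0.03. In 8 mast cell genes 1 was lower, Gata2 (-0.42 ± 0.09).

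Among cytokines and their receptors 12 of 28 were higher and 2 lower, and 5 and 0 without the 4 mice. Il34, a keratinocyte ligand of the CSF1 receptor on which Langerhans cells depend, was 0.68 ± 0.10 higher with no overlap, Il13ra1, a chain of the interleukin-13 receptor, 0.77 ± 0.10, and both of these probesets remained called without the 4 mice. The dimmer probesets of Il13ra1 gave 0.54 ± 0.12, not called without the 4 (adjusted p = 0.16), and 0.32 ± 0.13, not called with all mice (adjusted p = 0.0984). Il1a, Tnf and Il23a were 0.79 ± 0.20, 0.70 ± 0.20 and 0.99 ± 0.25 higher with overlapping groups and were not called without the 4 (adjusted p of 0.0579, 0.276 and 0.155). Of 15 antimicrobial genes 6 were higher and 2 lower, and 3 and 1 without the 4 mice. The largest difference among them was in Rnase2b, an eosinophil-associated ribonuclease (-1.71 ± 0.25), with no overlap. Defb1, a beta-defensin of epithelia, had a median of 10.74 (10.45 to 10.93) with Cpd1 and 11.63 (11.35 to 11.91) with Cpd2, 1.86-fold higher (adjusted p = 2.03e-06) and as large without the 4 mice (0.89). The neutrophil and keratinocyte protein S100a8 went the other way (-0.79 ± 0.27, adjusted p = 0.0479), and was not called under 19 of the 32 other settings tried, leaving out the 4 mice among them (adjusted p = 0.272). The interferon response list, at 1 higher and 0 lower of 21, had a median of 0.03.

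Other genes among the 15 largest increases whose groups did not overlap were Ch25h, which makes 25-hydroxycholesterol (1.19 ± 0.19), and Il20ra, a receptor chain for interleukin-20 family cytokines on keratinocytes (1.10 ± 0.15). They also included the receptor Mrgprb3 (1.07 ± 0.16), Sectm1a (1.01 ± 0.16) and the immediate early gene Ier2 (1.28 ± 0.19). The last was measured by a dimmer and a brighter probeset, and the brighter one was not called (0.28 ± 0.12, adjusted p = 0.119). The same holds in part for Hnrnpf, an RNA-binding protein, whose dim probeset gave 1.07 ± 0.19 and whose bright one 0.37 ± 0.06.

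Of 24 genes of the cornified envelope and late epidermal differentiation 13 were higher and 0 lower with Cpd2, 11 were not called, and the median was 0.34. In the fit without the 4 mice 7 were higher and 0 lower. Among all 14 late cornified envelope genes tested, small proline- and cysteine-rich proteins that are cross-linked under the surface of the skin, 12 were higher and 0 lower, with a median of 0.85, 11 of them without overlap, and without the 4 mice 11 were higher. Lce1f had a median of 8.27 (7.26 to 8.62) with Cpd1, 9.43 (8.73 to 9.66) with Cpd2 and 8.43 (7.36 to 8.80) with vehicle, 2.19-fold higher with Cpd2. Lce1a1 was 0.99 ± 0.10 higher (adjusted p = 6.9e-06). Lce1g and Lce3c were not called, at 0.23 ± 0.14 and 0.35 ± 0.19, and Lce1g was near the bottom of the scale in all mice. The genes of this family are near-identical in parts and lie side by side on chromosome 3, so that their probesets can share signal and the 12 increases are not independent.

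Since these genes moved together, the last 70 bases before the start are shown for 6 of them, with Lce1g and Lce3c, which were not called, for comparison, on GRCm38.p6 from RefSeq. Capitals mark ATAAAA and CTGTCTCA, searched on both strands and picked after the stretches had been read.
Lce1a1, chr3:92648308-92648377, minus strand: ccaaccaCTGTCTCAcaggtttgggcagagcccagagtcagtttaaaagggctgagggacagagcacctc
Lce1b, chr3:92656927-92656996, minus strand: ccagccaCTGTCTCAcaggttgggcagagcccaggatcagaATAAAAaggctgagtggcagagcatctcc
Lce1c, chr3:92679177-92679246, plus strand: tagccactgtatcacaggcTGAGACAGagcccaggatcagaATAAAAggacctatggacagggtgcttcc
Lce1h, chr3:92765066-92765135, minus strand: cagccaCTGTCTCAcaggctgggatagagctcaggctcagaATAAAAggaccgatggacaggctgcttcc
Lce1l, chr3:92851287-92851356, minus strand: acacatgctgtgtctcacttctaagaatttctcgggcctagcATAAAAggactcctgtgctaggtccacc
Lce6a, chr3:92621661-92621730, minus strand: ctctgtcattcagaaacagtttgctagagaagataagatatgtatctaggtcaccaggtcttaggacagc
Lce1g, chr3:92752339-92752408, minus strand: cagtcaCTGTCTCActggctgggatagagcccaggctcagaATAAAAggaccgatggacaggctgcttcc
Lce3c, chr3:92944416-92944485, plus strand: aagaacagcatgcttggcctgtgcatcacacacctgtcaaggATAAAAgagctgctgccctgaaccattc
Of the 20 late cornified envelope promoters listed by RefSeq, 18 held ATAAAA in this window, against 5.32% of all promoters, and 11 held CTGTCTCA, against 0.365%. Among the members tested, ATAAAA stood in 9 of the 11 that were higher and had an entry and in both of the 2 that were not called, and CTGTCTCA in 8 of the 11 and 1 of the 2. Lce1g carries both and was not called, so these letters do not separate the called members from the others.

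Kallikreins, the serine proteases that cut corneodesmosomes as skin sheds, were higher in 7 of 12 and lower in 0, with a median of 0.52, and in 5 and 0 without the 4 mice. Klk6 had a median of 9.14 (8.39 to 9.96) with Cpd1 and 10.53 (9.99 to 11.13) with Cpd2, 2.69-fold higher (adjusted p = 0.000139). Klk11 and Klk8 were 0.92 ± 0.12 and 0.82 ± 0.13 higher, also without overlap. The serpins, their inhibitors among other roles, went both ways: of 32 tested 7 were lower and 8 higher, and 6 and 6 without the 4 mice. Among the higher ones, Serpinb2 (0.90 ± 0.09) and Serpinb10 (0.80 ± 0.11) did not overlap between the groups, while Serpinb12 (0.88 ± 0.23) overlapped and was not called without the 4 mice (0.38, adjusted p = 0.211). The lower ones ran from Serpina3b through Serpinb1c (-2.44 ± 0.23) and Serpina1e (-1.74 ± 0.50) to Serpinb6c (-0.81 ± 0.18), and the last 2 of these overlapped and were not called without the 4 mice (adjusted p = 0.0592 and 0.0897). The late cornified envelope, kallikrein and serpin families were drawn up after their leading members had been seen.

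**Figure D5:**
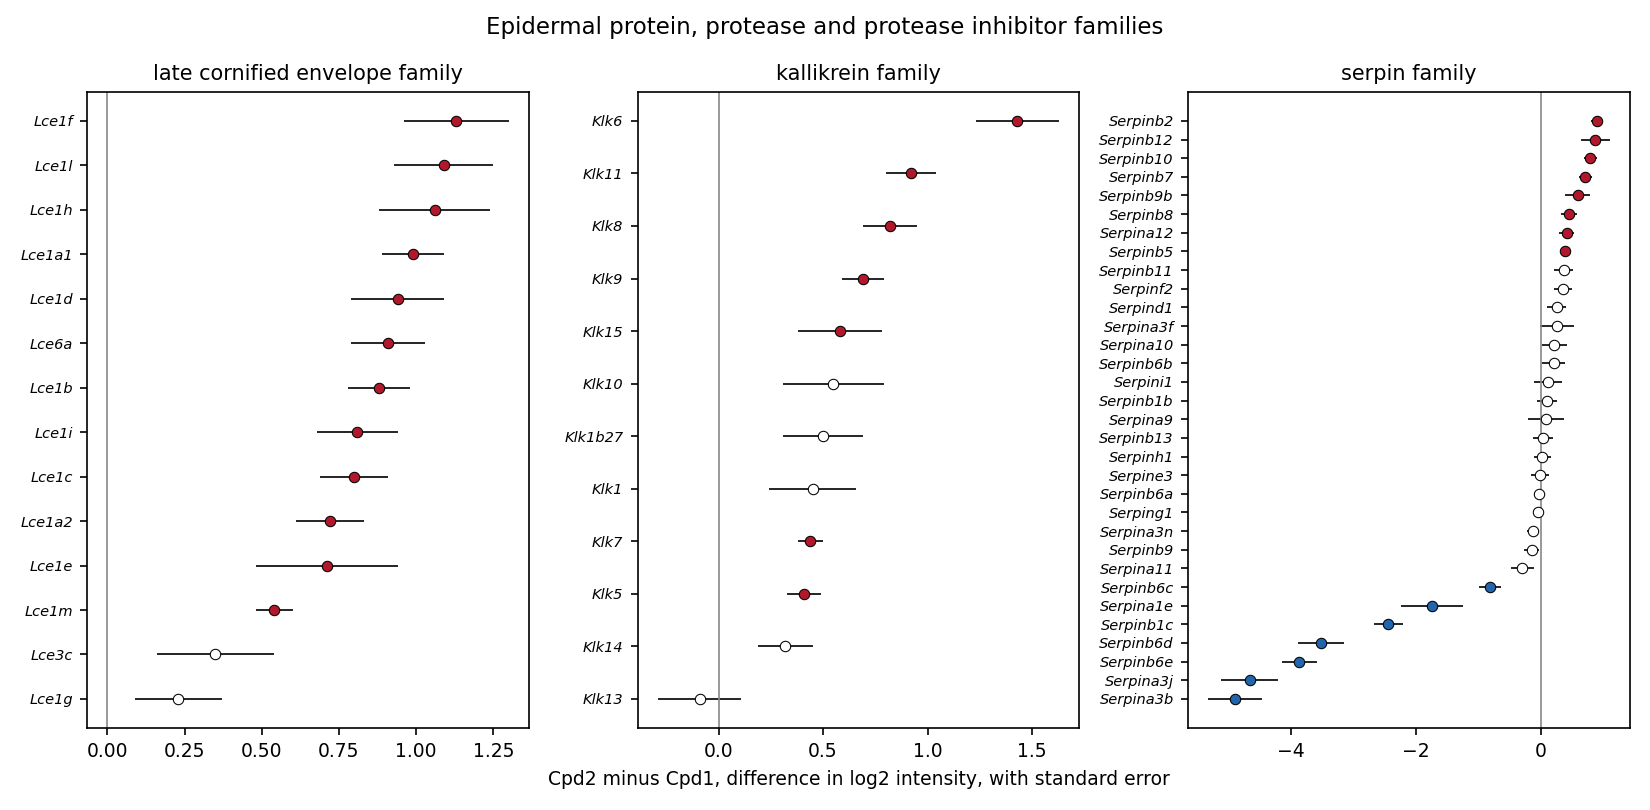
Cpd2 minus Cpd1 difference in log2 intensity with its standard error (x axes) of every tested late cornified envelope, kallikrein and serpin gene (y axes), called higher in red, called lower in blue and not called in white, all 16 mice. The first family holds 12 higher genes, the second 7, and the third 8 higher and 7 lower with the largest decreases at about the level of Serpina3b (-4.90).

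Sphingolipid genes of the skin barrier were split, with 10 higher and 6 lower of 27, and 4 and 7 without the 4 mice. Degs2, which makes the phytoceramides of epidermis, was highest in the list, with a median of 6.27 (5.27 to 6.96) for Cpd1, 7.58 (7.28 to 8.11) for Cpd2 and 7.15 (6.45 to 8.73) for vehicle, so that its difference of 1.45 ± 0.23 lay between the compounds more than between Cpd2 and vehicle. Aloxe3, an epidermal lipoxygenase of the barrier, was 0.70 ± 0.08 higher without overlap. The ceramide synthases Cers5 and Cers4 were 1.16 ± 0.11 and 0.86 ± 0.10 lower, also without overlap, and the alkaline ceramidase Acer2 was 0.60 ± 0.09 lower. Both directions were present without the 4 mice, at 0.67 for Aloxe3 and -0.95 for Cers5.

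Basal keratinocyte genes were higher in 5 of 7 and lower in 1 (3 and 0 without the 4 mice), with Col17a1, a collagen of the hemidesmosome, at 0.49 ± 0.09 and Trp63, the transcription factor of the basal layer, at 0.44 ± 0.08. The lower one was Dst, dystonin (-0.59 ± 0.12), which also has forms in muscle and nerve. Of 25 cell division genes 8 were higher and 0 lower, and 1 and 0 without the 4. Birc5, survivin, differed most with all mice, by 0.76 ± 0.18 with overlapping groups, and was not called without the 4 (adjusted p = 0.0907). The gene called without them was Mcm4, a subunit of the replicative helicase (0.28, adjusted p = 0.0359), named after its values were seen. Fibroblast and collagen genes were higher in 2 of 17 and lower in 0, which turned to 0 and 1 without the 4 mice, and the circadian clock list had 1 higher and 2 lower of 18, which turned to 2 and 0. Of 20 immediate early and heat shock genes 6 were higher and 0 lower, and 1 and 0 without the 4 mice. Of 25 hair growth regulators 3 were lower and 1 higher, and 4 and 0 without the 4 mice, with Fgf5, a factor that ends hair growth, at -1.52 ± 0.49 with overlapping groups and no call under 19 of the 32 other settings, and Alpl, the alkaline phosphatase also found in dermal papilla, at -1.2 ± 0.12 without overlap. With all mice the counts of the fibroblast, clock and hair growth lists were near or below the shares over all genes (10.9% higher and 11.1% lower). Melanocyte genes were called in 0 of 9 by limma (the unadjusted p was under 0.05 in 1, and the methods' t-test called 0), with a median of -0.21. Activated keratinocyte genes were split at 1 higher and 1 lower of 8, nerve and Schwann cell genes were higher in 2 of 7 and lower in 0, and these lists held no call without the 4 mice.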

How the data were processed

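Skin RNA of 16 mice (8 given Cpd1 and 8 given Cpd2 in Study 1) was read on custom Affymetrix arrays, 1 per mouse, after NuGEN amplification. The authors deposited linear intensities per probeset, made with RMA, whose version is not given in the sources used here, and log2 of these intensities was taken. Array medians were 26.4 to 28.7 and correlations between arrays 0.952 to 0.989. The number of arrays limits the precision. Probesets whose mean over the 16 arrays was under the 25th percentile (2.93 on the log2 scale) were left out, and 28789 of 38385 were tested with limma 3.58.1 in R 4.3.3 (lmFit and eBayes with an intensity trend, 14 residual degrees of freedom, 2-sided, Benjamini-Hochberg). The present-call filter of the methods could not be repeated from this table. On simulated data 91% of genes changed 2-fold were recovered and 2.67% of calls were false. That simulation had independent normal noise, few changed probesets and no mice that stood apart together. Its shares therefore do not measure recovery or false calls in the real arrays. They also do not cover smaller changes, and the median fold of the called probesets was 1.38.

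Of all probesets 24478 had 1 gene name, 65 several and 13842 none. In lists and counts by gene, each of the 15371 genes is its probeset of highest mean. Named genes were the 15 largest increases and the 15 largest decreases among called probesets whose groups did not overlap, 1 probeset per gene, the study's marker set with Dgat1 and Dgat2, up to 5 called members per list by size and up to 3 of highest level in cell type or position lists, and genes whose vehicle mice lay outside both compounds. Other genes were chosen after their values were seen. The members and lists were chosen with earlier results of these data known. Alternatives changed the filter, normalization, scale, array weights, test, covariates, arrays in the fit, replicate block and single mice. Leaving out the 3 or 4 Cpd2 mice lowest in muscle genes was added after seeing the data. The methods' t-test is their 1-way analysis of variance on the same values, at p under 0.01 and a fold over 1.2 or after Benjamini-Hochberg adjustment. Same-numbered mice did not deviate together, so the numbers were not used as pairs. Promoter sequences are RefSeq's, on GRCm38.p6.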

Additional observations from a re-analysis of the deposited data

Results flagged for a closer look

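In 250 groups of 8 mice (122 named probesets and 3 list means, each with Cpd1 and with Cpd2), 11 held a mouse whose gap to its nearest neighbour took up more than 0.526 of the group's range, which chance gives in about 1 group in 20. Cpd2 replicate 1 was high in Akr1c21 (4.90, the next mouse 3.50) and in Acox3 (9.59, the next 8.98). Cpd2 replicate 7, one of the mice low in muscle genes, was high in Trp63 (11.89) and Serpinb10 (9.45). Cpd1 replicate 2 was low in a pair of neighbouring family members, Lce1f (7.26) and Lce1c (9.11). The others were single genes: Cpd2 replicate 2 in Fgf5 (5.47), Cpd1 replicate 7 (7.51) and Cpd2 replicate 4 (9.45) in Ccr2, Cpd1 replicate 3 in Scd1 (12.90), and Cpd1 replicate 6 in Tnfrsf9 (6.15).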

How the results depend on the processing

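The count of called probesets turned on the 4 Cpd2 mice low in muscle genes. Against 5239 called (2683 higher, 2556 lower), 2201 (1010 and 1191) were called with the muscle mean as a covariate, 2107 (964 and 1143) without the 3 lowest mice and 1741 (743 and 998) without the 4. The cause was not tested, and the last fits hold fewer mice. Leaving out each mouse in turn gave 4055 to 5168 calls (1999 to 2674 higher and 2046 to 2500 lower) and 928 to 1148 without overlap, against 902. The other settings kept all these counts within 1.5 times.

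Of 122 named probesets 94 kept their direction and call under all 32 settings. The muscle covariate ended the call of 23, and leaving out the 4 mice also ended 23. Fgf5 and S100a8 lost it under 19 settings each. Dgat2 lost it with the vehicle arrays or all 48 arrays in the fit. Wnt10a, not called at 0.07, turned to -0.14 with the muscle covariate and without the 4 mice, and ranged from -0.01 (without Cpd2 replicate 2) to 0.16 when single mice were left out. The muscle list median turned to 0.11 with its own mean as covariate, by construction.

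Deviations of mice with the same number correlated between -0.424 and 0.213, and 1 mouse correlated best with its own number. With the replicate number as a block 4411 probesets were called (2223 higher, 2188 lower), 891 without overlap. Dim probesets near the filter of 2.93 have compressed differences, so that low genes may differ by more than is given.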
